A study of Aspergillus glaucus with 6 samples.

Results

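The genes described here climbed by small steps with sodium chloride (NaCl) at 84 h in mycelium of a filamentous fungus known for its tolerance of salt, Aspergillus glaucus strain CCHA. There were 7 of them among the 8441 gene IDs listed in the count files (0.0829%). Levels are given as CPM, the reads of a gene per 1000000 counts of its library, and 1 CPM was added to each level before a fold was taken. A gene was chosen where each of the 3 salt steps at 84 h, from 0 M to 1 M, 1 M to 3 M and 3 M to 4 M, was an increase of 1.2-fold to less than 2-fold. It also had to reach 10 CPM in 4 M and at least 2.5-fold its level in 0 M, and its level in 1 M at 84 h had to stay under 3-fold the higher of its levels at 36 h. The measured levels at 84 h thus chose the members, and their course at 84 h is a description that carries no test.

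RNA sequencing was done on 6 libraries of strain CCHA, 1 for each condition. The 84 h cultures had NaCl at 0 M, 1 M, 3 M or 4 M, and the 36 h cultures had it at 3 M or 1 M. Growth before the treatment and the number of cultures behind a library are not given in the labels. Library totals ran from 16371771 to 18376857 counts, so that 3 counts correspond to 0.163 to 0.183 CPM. Each condition has a single library, so no difference could be set against a spread between cultures, no p-value was computed, and the exact 95% intervals below cover counting error only.

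Salt at molar concentration draws water out of a fungal cell and brings sodium ions into it. Filamentous fungi are known to answer through the high-osmolarity glycerol (HOG) kinase cascade, by storing glycerol and other compatible solutes, by pumping sodium out across the plasma membrane, and by remodelling the cell wall and membrane. None of the 7 genes can be placed in these processes here, since the files pair no ID with a name and 0 of the 8441 IDs matched any of the 11428 genes that RefSeq lists for another strain. Gene lengths are likewise not given, so the CPM of different genes says how many reads each drew and not which transcript was the more abundant. Each library holds the RNA of a whole mycelium, in which more cells of a kind and more RNA per cell cannot be told apart, and with unnamed IDs no cell-type marker could be looked up.

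Some libraries lay closer together than their labels do. Of the 15 pairs of libraries, that of 4 M at 84 h with 3 M at 36 h held the fewest genes at least 4-fold apart, 105 of the 5853 genes with 10 CPM in either library. At 84 h the 3 M library was 4-fold apart from 4 M in 685 genes, but from 0 M in 334 and from 1 M at 36 h in 253. Whether the 36 h and 84 h cultures in 3 M were swapped was not tested, and labels are taken as given; a swap would alter every 3 M value, the contrast at 36 h and the choice of members. The level in 3 M decides the middle of every course described here, and the rule without it is given with the choice of members.

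A course of this kind was rare. At 84 h, 358 of the 6413 genes with 10 CPM in either library were at least 2.5-fold higher in 4 M than in 0 M (5.58%), and all 7 members are among them by rule. Of the 358 genes, 105 increased at each of the 3 steps. In 85 of the 105 at least 1 step was 2-fold or more, in 46 at least 1 step was under 1.2-fold, some genes having both, and 7 had all 3 steps within the bounds. The limit set by the 36 h libraries removed none of them. Near misses on a single step were more frequent than members, since 22 genes met every condition but that on 0 M to 1 M, 18 every one but that on 1 M to 3 M, and 22 every one but that on 3 M to 4 M. Without the 3 M library at 84 h, and with a single step from 1 M to 4 M of 1.44-fold to less than 4-fold, the rule held for 54 genes, the 7 included. In 31 of the other 47 genes the 3 M level did lie from the 1 M to the 4 M level, in 11 it was below 1 M and in 5 above 4 M.

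Together the 7 genes took 0.0324% of the counts in 0 M at 84 h (exact 95% interval 0.0315% to 0.0333%), 0.0491% in 1 M (0.0481% to 0.0501%), 0.0641% in 3 M (0.0629% to 0.0653%) and 0.104% in 4 M (0.102% to 0.105%). At 36 h they took 0.0437% in 3 M (0.0428% to 0.0447%) and 0.0362% in 1 M (0.0353% to 0.0371%). The summed level at 36 h in 3 M thus lay between the sums of the 0 M and 1 M libraries at 84 h. Taken gene by gene, such a place was found in 4 of the 7.

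AG07786.1 drew the most reads of the 7 in 4 M, with 98.8 CPM in 0 M, 157 in 1 M, 203 in 3 M and 353 in 4 M at 84 h. Only 501 genes, itself included, stood at or above its CPM in the 4 M library, against 2250 in the 0 M library. AG00443.1 had 87.5, 136, 165 and 258 CPM at the same concentrations. Both genes gained least between 1 M and 3 M, where AG00443.1 passed the lower bound narrowly with a 1.22-fold step (interval of the CPM ratio 1.16 to 1.29).

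AG01417.1 had 68.7 CPM in 0 M, 95.1 in 1 M, 126 in 3 M and 179 in 4 M at 84 h, and its steps of 1.38-fold, 1.33-fold and 1.41-fold were the most even of the 7. It was also the member nearest to the threshold of 2.5-fold, at 2.58-fold in 4 M over 0 M. Just outside, AG07300.1 met every other condition and reached 2.43-fold, with 21.8 CPM in 4 M and 8.37 CPM in 0 M. AG06203.1 had 45.8, 70.6, 97.7 and 169 CPM from 0 M to 4 M, a 3.62-fold difference between the ends.

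The other 3 genes drew few reads. AG03609.1 had 11.9 CPM in 0 M, 16.6 in 1 M, 24.98 in 3 M and 36.1 in 4 M, and was the only member whose largest step was that from 1 M to 3 M (1.47-fold). AG04593.1 had 8.92, 12.4, 17.8 and 30.4 CPM. AG08162.1 had 2.08, 4.09, 5.44 and 10.2 CPM, from 34, 74, 100 and 183 counts, and so entered barely above the level minimum. Its step from 1 M to 3 M could not be told from no change by counting alone (CPM ratio 1.33, interval 0.976 to 1.82), whereas the intervals of the other 20 steps of the 7 genes lay above 1.

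**Figure D1:**
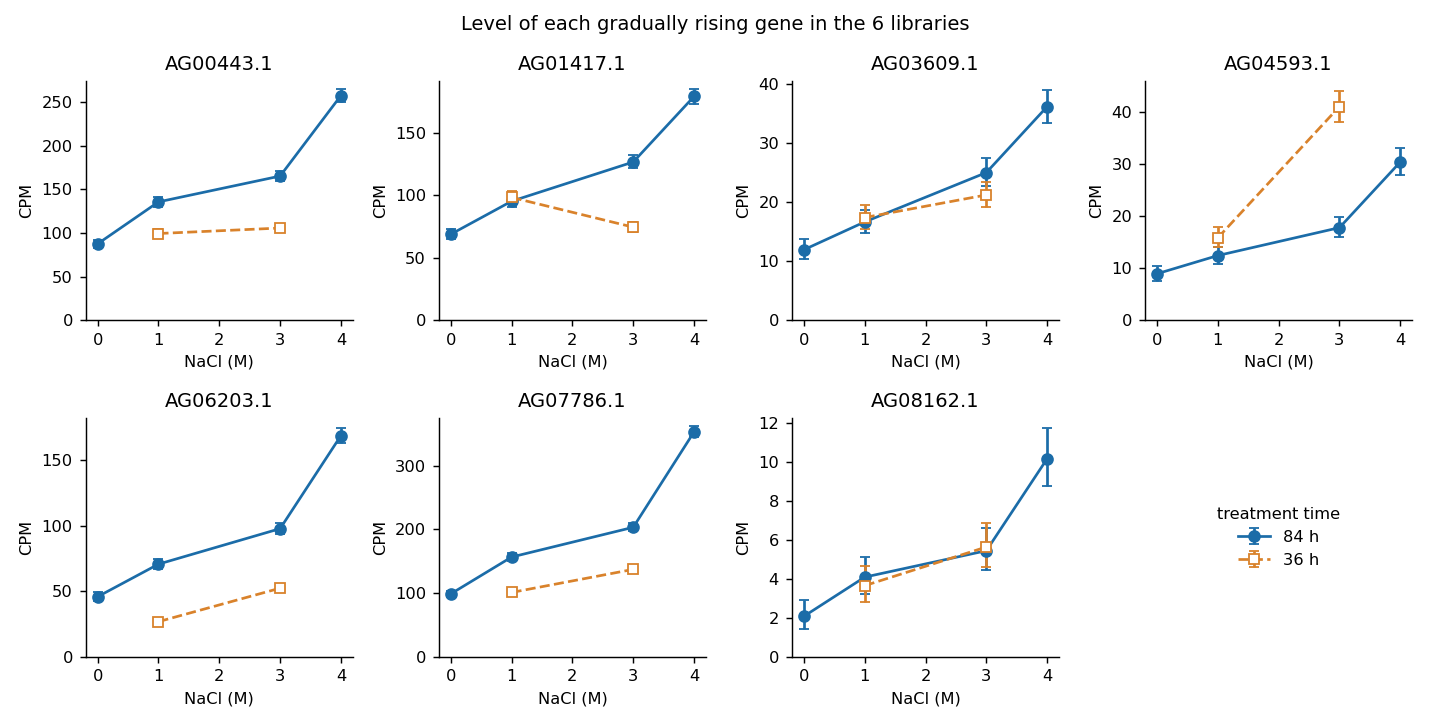
CPM of the 7 gradually rising genes (vertical axes from 0, each with its own scale) against NaCl in M, with 84 h as filled circles and 36 h as open squares; bars are exact 95% Poisson intervals of the counts, and each point is 1 library. Every 84 h course climbs by rule, AG07786.1 reaching 353 CPM in 4 M, while the 36 h points of AG06203.1 (52.3 CPM for 3 M, 26.8 CPM for 1 M) lie below its 84 h course and that of AG04593.1 in 3 M, at 41.1 CPM, lies above it.

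Within the bounds that the rule sets, the step sizes were not uniform. The step from 0 M to 1 M had a median of 1.53-fold over the 7 genes (range 1.35 to 1.65), that from 1 M to 3 M a median of 1.33-fold (1.22 to 1.47), and that from 3 M to 4 M a median of 1.67-fold (1.41 to 1.73). The last step was the largest in 6 of the 7 genes and the middle step the smallest in 5. The middle step also spans 2 M of NaCl rather than 1 M, and since the rule holds all 3 steps to the same fold bounds, it fixes beforehand that this step tends to be the shallowest per unit of salt. The counting intervals of the last and the first step overlapped in all 7 genes. Those of the last and the middle step lay apart in 3 (AG00443.1, AG06203.1 and AG07786.1). Overlap of intervals does not show that steps were equal, and the difference between steps was not tested. The medians of the 6680 genes with 10 CPM in any 84 h library were 0.906-fold, 1.08-fold and 0.995-fold at the 3 steps. With TMM factors these medians were 0.974-fold, 1.01-fold and 1.05-fold, and with DESeq2 size factors, another correction for composition, 1.01-fold, 0.994-fold and 1.04-fold. The last step was the largest of the 3 in 6 members with TMM factors and in 4 with DESeq2 size factors, where the first step was the largest in the other 3. On library totals without the added 1 CPM, AG08162.1 had its largest step first. Its CPM ratios were 1.97 at the first step and 1.87 at the last.

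**Figure D2:**
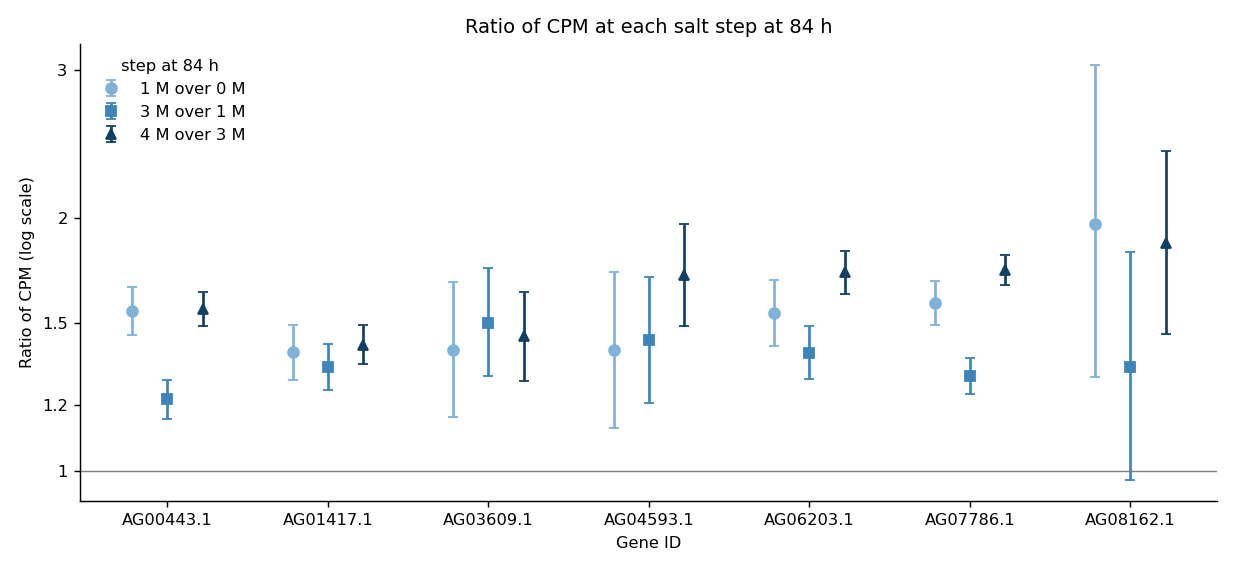
Ratio of CPM at each of the 3 salt steps at 84 h (vertical axis, log scale) for the 7 genes, with exact 95% counting intervals as bars. The triangles for 4 M over 3 M are highest in most genes, as in AG07786.1 with a CPM ratio of 1.74, and the interval of AG08162.1 for 3 M over 1 M is the only one that reaches below 1.

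At 36 h, the 3 M library was set against the 1 M library to see how the same genes stood in salt at the earlier time. The rule did not use the direction of this contrast, and its 2 libraries are not among those that set the 84 h course. The salt difference was uneven among the members. AG04593.1 and AG06203.1 were higher in 3 M by more than over any of their single steps at 84 h. The rule held each of those steps under 2-fold, so this comparison was bounded beforehand. AG07786.1 and AG03609.1 were higher by smaller folds. AG00443.1 differed little, by a fold whose interval includes equality under only 1 of the 3 scalings. AG01417.1 was lower in 3 M. Of the 6 members with 10 CPM in either library, 5 lay above equality in 3 M, as did 44.6% of the 6316 genes tested. Only AG04593.1 was at least 2-fold higher, where 9.59% of all genes were, and 0 members were at least 2-fold lower, where 20.1% of all genes were. The median log2 fold change was 0.36 over the 6 members and -0.12 over all genes tested. Scaling with TMM factors, which correct library size for differences in composition, raised the median of all genes by 0.18 and gave medians of 0.52 and 0.058, with the same number of members, 5 of 6, above the median of all genes.

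At 36 h AG04593.1 had 41.1 CPM (737 counts) in 3 M and 15.8 CPM (269 counts) in 1 M, a log2 fold change of 1.32 (interval of the CPM ratio 2.25 to 3.00). In 3 M at 36 h it stood above all its 84 h levels, including 30.4 CPM in 4 M. It was the only member whose highest level was not in 4 M at 84 h.

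AG06203.1 had 52.3 CPM in 3 M and 26.8 CPM in 1 M at 36 h, a 1.92-fold difference (interval of the CPM ratio 1.74 to 2.19). With TMM factors it passed 2-fold. Its level in 1 M at 36 h was below the 45.8 CPM of the 0 M library at 84 h, so it was the only member whose lowest level was not in 0 M.

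AG07786.1 had 137 CPM in 3 M and 101 CPM in 1 M at 36 h (CPM ratio interval 1.28 to 1.45), and AG03609.1 had 21.2 CPM in 3 M and 17.4 CPM in 1 M (1.05 to 1.43). AG00443.1 had 106 CPM in 3 M and 99.4 CPM in 1 M, and its interval of 0.995 to 1.14 includes equality. With TMM factors the log2 fold change of AG00443.1 was 0.26 in place of 0.088 (interval of the ratio 1.12 to 1.28), and with DESeq2 size factors it was 0.29 (1.15 to 1.31). AG01417.1 alone was lower in 3 M, with 74.3 CPM (1333 counts) there and 98.1 CPM (1667 counts) in 1 M (interval 0.704 to 0.814). Its log2 fold change of -0.40 was -0.23 with TMM factors and -0.20 with DESeq2 size factors, with intervals of the ratio still below 1 (0.793 to 0.917 and 0.810 to 0.937). At 84 h the same contrast gave AG01417.1 126 CPM in 3 M and 95.1 CPM in 1 M, an increase that the rule required.

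AG08162.1 had 101 reads in 3 M (5.63 CPM) and 62 reads in 1 M (3.65 CPM) at 36 h. It did not reach 10 CPM in either library and is left out of the counts and medians at 36 h. Its CPM ratio had an interval of 1.11 to 2.15.

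**Figure D3:**
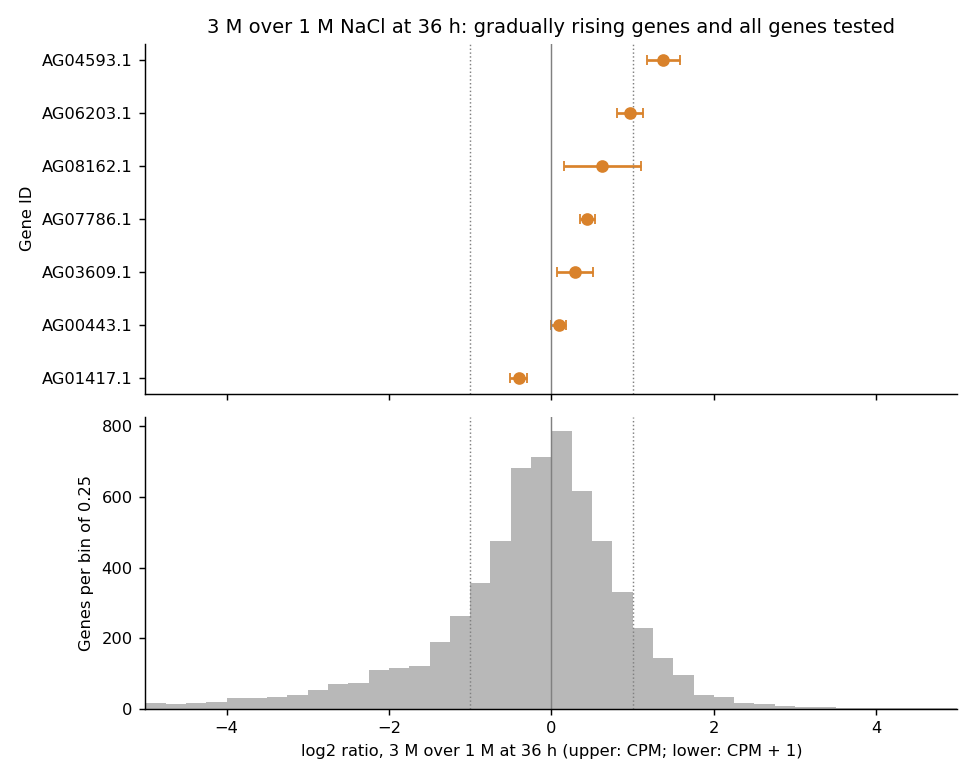
Log2 ratio of 3 M over 1 M NaCl at 36 h (horizontal axis); the upper panel gives the 7 genes as CPM ratios with exact 95% counting intervals, the lower panel counts the 6316 genes tested in bins of 0.25 on CPM + 1, with 81 genes beyond 5 in either direction not drawn. AG04593.1 alone lies wholly to the right of the dotted line at 1 (2-fold), and AG01417.1 alone lies to the left of 0.

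Genes with other courses at 84 h were set beside the members in the same contrast at 36 h, as a description without a test. The 52 genes that met the other conditions with steps of at least 1.2-fold, at least 1 of them 2-fold or more, had a median log2 fold change of 1.31 in 3 M over 1 M at 36 h among the 45 that reached 10 CPM, and 30 of the 45 were at least 2-fold higher. The 241 genes that ended 2.5-fold to 8-fold higher in 4 M than in 0 M but had at least 1 step under 1.2-fold, or downward, had a median of 0.85 over 226 tested, of which 100 were higher by 2-fold or more and 21 lower by as much. On library totals, the members' median of 0.36, over 6 genes, was lower than that of either group of uneven or steeper courses. It was 0.55 with DESeq2 size factors and 0.74 with members chosen on TMM-scaled values. The medians of the other groups are given on library totals only. A step of 2-fold or more at 84 h was required of the steeper group by rule. Under the mirrored rule, with decreases in place of increases, 29 genes were found. Their median at 36 h was -1.18 over 26 tested, and 16 of the 26 were at least 2-fold lower in 3 M. Of all 6316 genes tested, 9.59% were at least 2-fold higher in 3 M and 20.1% at least 2-fold lower.

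**Figure D4:**
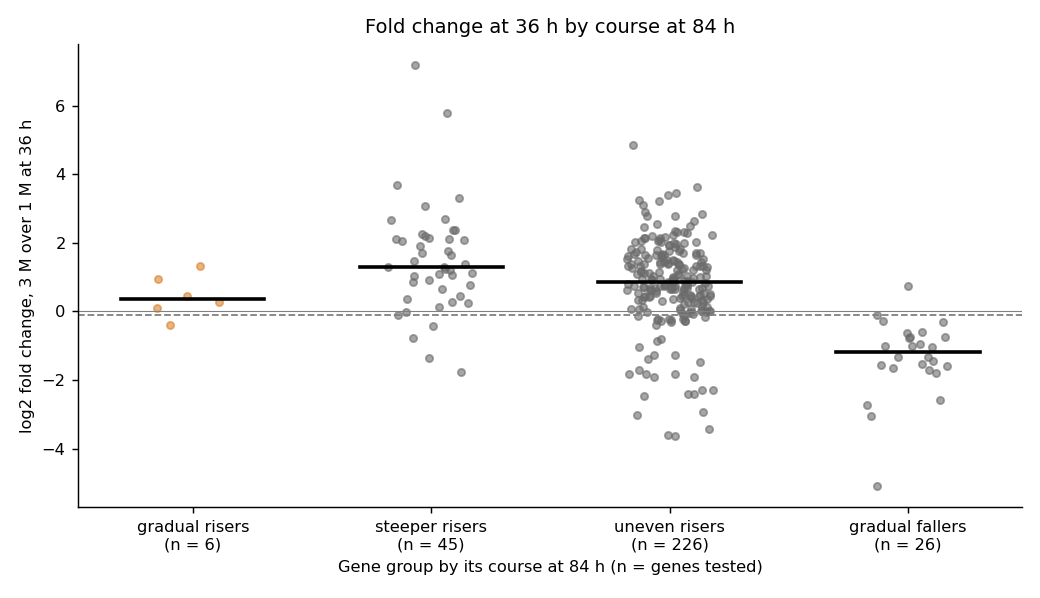
Log2 fold change (CPM + 1) of 3 M over 1 M NaCl at 36 h by gene, grouped by course at 84 h; black bars are group medians, the dashed line is the median of all genes tested (-0.12), and sideways scatter is only for legibility. The 6 gradual risers tested lie between -0.40 and 1.32, around a median of 0.36, against medians of 1.31 for the steeper and 0.85 for the uneven risers and -1.18 for the gradual fallers.

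Culture time was compared at the concentrations sampled at both times, 1 M and 3 M. In 1 M NaCl, 3 of the 6 members tested were higher at 84 h than at 36 h, where 48.3% of the 6393 genes tested were. AG06203.1 had 70.6 CPM at 84 h and 26.8 CPM at 36 h, a 2.58-fold difference, and was the only member to reach 2-fold in either direction (10.5% of all genes were as much higher, and 10.3% as much lower). AG07786.1 was 1.54-fold and AG00443.1 was 1.36-fold higher at 84 h. AG04593.1 had 12.4 CPM at 84 h and 15.8 CPM at 36 h (interval of the CPM ratio 0.654 to 0.940). The intervals of AG01417.1, AG03609.1 and AG08162.1 in 1 M included equality. The rule capped the level in 1 M at 84 h against the 36 h libraries, so these values describe genes under that cap. It also set bounds on the steps to and from that level. The members' counts in this contrast are a description and are not to be read against the percentages of all genes.

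In 3 M NaCl, 5 of the 6 members tested were higher at 84 h than at 36 h, where 59.4% of all 6306 genes were. Of the 5, 0 were higher by 2-fold or more, where 23.2% of all genes were. AG06203.1 came nearest, with 97.7 CPM at 84 h and 52.3 CPM at 36 h, followed by AG01417.1 with 126 CPM at 84 h and 74.3 CPM at 36 h. AG04593.1 was the exception, at 17.8 CPM at 84 h and 41.1 CPM at 36 h, a log2 fold change of -1.16 (interval of the CPM ratio 0.379 to 0.494); 11% of all genes were at least 2-fold lower. The members' median log2 fold change was 0.60 and that of all genes tested 0.23. TMM factors lowered the median of all genes by 0.22 and gave 0.39 for the members. The rule set bounds on the steps to and from the 3 M level at 84 h, so the members' values in this contrast are a description. Their counts and median are not to be read against the percentages and the median of all genes.

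The 4 M library at 84 h was then set against the 3 M library at 36 h, the pair that differed least over all genes. Of the 7 members, 6 were higher in 4 M at 84 h, as were 63.3% of the 5853 genes tested. At least 2-fold higher were 4 members and 6.97% of the genes tested. These 4 were AG06203.1 at 3.18-fold, AG07786.1 at 2.56-fold, AG00443.1 at 2.43-fold and AG01417.1 at 2.39-fold. AG04593.1, with 30.4 CPM in 4 M at 84 h and 41.1 CPM in 3 M at 36 h, was lower. The rule asked for a high level in 4 M, so both counts are a description and are not to be read against the 63.3% and 6.97%.

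**Figure D5:**
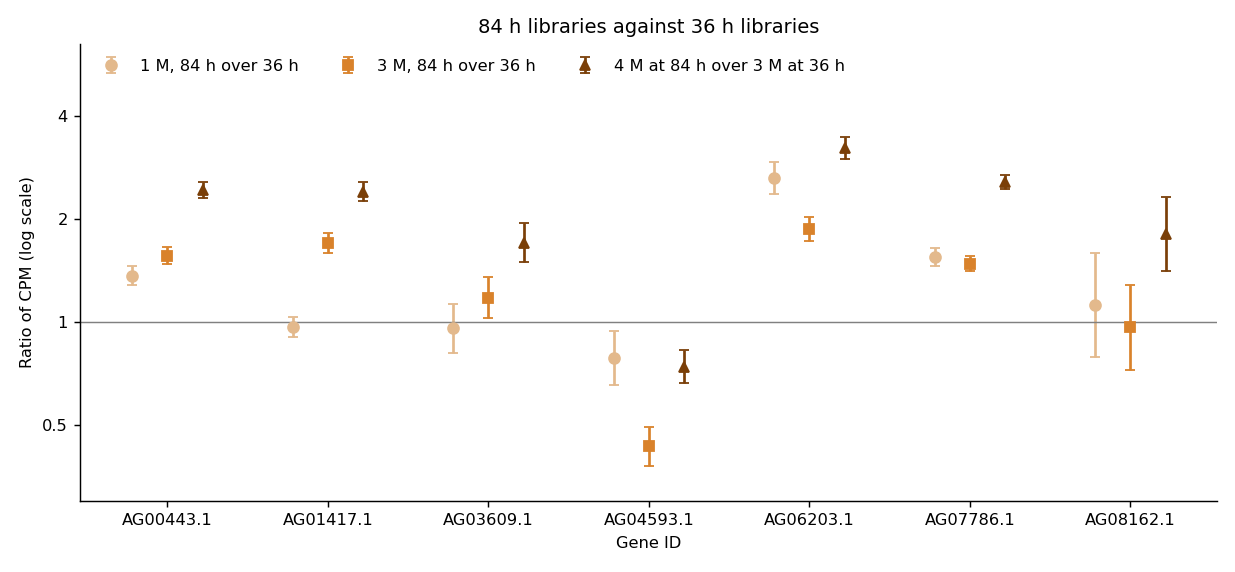
Ratio of CPM (vertical axis, log scale) of 84 h over 36 h libraries for the 7 genes, in 1 M (circles), in 3 M (squares) and for 4 M at 84 h over 3 M at 36 h (triangles), with exact 95% counting intervals. All 3 ratios of AG04593.1 lie below 1, and all 3 of AG06203.1, AG07786.1 and AG00443.1 lie above it.

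Placed on each gene's own 84 h course, the 3 M level at 36 h fell between the 84 h levels of 0 M and 1 M in 4 of the 7 genes (AG00443.1, AG01417.1, AG06203.1 and AG07786.1). It fell between 1 M and 3 M in AG03609.1, between 3 M and 4 M in AG08162.1, and above 4 M in AG04593.1. The 1 M level at 36 h fell below 0 M in AG06203.1, between 0 M and 1 M in 3 genes and between 1 M and 3 M in the other 3. Some placements lay within counting error. In 1 M, the intervals of 84 h over 36 h include equality for AG01417.1, AG03609.1 and AG08162.1, and in 3 M for AG08162.1. By their point values, the 4 genes with the most reads in 4 M were those whose 3 M level at 36 h fell within the least salty step of their later course.

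The 7 genes were not neighbours in the ID numbering, where the closest pair was 376 numbers apart. Of the 13 listed IDs next to a member, 0 increased at each of the 3 steps at 84 h, as 4.31% of all IDs did. At least 2.5-fold higher in 4 M than in 0 M was 1 of the 13, as were 4.92% of all IDs. Whether the numbering follows the chromosomes is not given in the sources used here.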

How the data were processed

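RNA was measured by sequencing in 6 libraries. Per gene ID, the authors deposited unnormalized read counts. The submitters' processing notes name TopHat2 2.0.8b, a read aligner, and HTSeq 0.5.4p2, a read counter. Not given in the sources used here are the genome build, annotation, strand setting and filters, so overlapping genes, antisense partners and paralogs could not be recognised. The smallest listed count is 1, and an unlisted gene was taken as 0.

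From these counts, CPM on library totals was computed, with a pseudocount of 1 CPM for folds. Levels and folds stay on the scale of the member rule. TMM factors (edgeR 4.0.16) and DESeq2 1.42.0 size factors were alternatives. A gene entered a comparison with 10 CPM in either library; the size rule was 2-fold. Ratios carry exact 95% Clopper-Pearson intervals and levels exact Poisson intervals (SciPy 1.17.1). The widest interval of a member's level, relative to that level, was that of AG08162.1 in 0 M at 84 h (2.08 CPM, 1.44 to 2.90). Its unequal arms averaged 35.2% of the level. Reads may be PCR copies of the same molecule, which intervals and floors ignore. The fold rule and intervals were checked on counts simulated with counting error alone, the error that the intervals assume. The changes put in were larger than 2-fold, so the check covers neither smaller folds nor spread between cultures. Members, groups and rules were chosen with earlier results of these data known. The naming rule (furthest apart at 36 h, highest in 4 M, largest range, most even steps, nearest the threshold) named all 7 members.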

Additional observations from a re-analysis of the deposited data

Results flagged for a closer look

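For AG01417.1, the log2 fold change of 3 M over 1 M was 0.41 at 84 h and -0.40 at 36 h, opposite in sign and 0.80 apart. The rule required a rise at this step at 84 h, so the positive sign there was fixed beforehand for every member. Only the sign at 36 h was free to differ. The signs stayed opposite with TMM factors, at 0.31 and -0.23 (0.54 apart), and with DESeq2 size factors, at 0.28 and -0.20 (0.48 apart). The same 0.80 is the time effect in 3 M less that in 1 M, with log2 fold changes of 0.76 in 3 M and -0.045 in 1 M; the value in 1 M was 0.0037 with TMM factors, so these signs were then no longer opposite. For AG03609.1 the time effect was 0.23 in 3 M and -0.060 in 1 M, a difference of 0.29 that shrank to 0.031 with TMM factors and was -0.026 with DESeq2 size factors. AG08162.1 had -0.042 in 3 M and 0.13 in 1 M, a difference of -0.17 (-0.40 with TMM factors and -0.45 with DESeq2 size factors). Counting intervals on library totals include equality for the time effects in 1 M of all 3 genes and for that of AG08162.1 in 3 M.

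Among members with the same sign at both times, the salt effect at 84 h less that at 36 h was most negative for AG04593.1 and AG06203.1. It was -0.84 for AG04593.1 (0.49 at 84 h and 1.32 at 36 h) and -0.48 for AG06203.1 (0.46 at 84 h and 0.94 at 36 h). For AG08162.1 it was -0.17 and for AG07786.1 -0.064, whereas AG03609.1 had 0.29 and AG00443.1 had 0.20. TMM factors gave -1.09 for AG04593.1, -0.74 for AG06203.1, 0.031 for AG03609.1 and -0.070 for AG00443.1. With 1 library per condition none of these differences was tested.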

How the results depend on the processing

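The number of members rested on the bounds and on 1 library. It was 7 as reported, 12 with DESeq2 size factors (4 of the 7 among them), 13 with a lower step bound of 1.1-fold, 4 with 1.3-fold and 29 with an upper bound of 3-fold. Leaving out the 3 M library at 84 h, an alternative chosen after seeing the data, gave 54 genes, the 7 included; in 11 of the other 47 the 3 M level lay below 1 M, and in 5 above 4 M. TMM factors gave 10 members, 5 of them shared, without AG00443.1 and AG08162.1.

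At 36 h, 1 of 6 members was at least 2-fold higher in 3 M than in 1 M. The count was 2 with TMM factors, 2 with DESeq2 size factors, 0 of 4 with a filter of 50 CPM, 3 of 10 with members chosen on TMM-scaled values, and 2 at 1.5-fold. The median log2 fold change of 0.36 moved to 0.55 with DESeq2 size factors and 0.74 with TMM-chosen members. In 1 M over time, the 1 higher member became 3 with TMM-chosen members and 2 at 1.5-fold, and the median of 0.20 became 0.54 at 50 CPM and 0.075 with TMM-chosen members. In 3 M over time, 3 members were higher at 1.5-fold and 0 at 2-fold, and the 1 lower member was lost at 50 CPM. The median of 0.60 there became 0.39 with TMM factors, 0.33 with DESeq2 size factors, 0.70 at 50 CPM and 0.0042 with TMM-chosen members. The cause of these changes was not tested, apart from the fewer or other genes that a filter or rule leaves. The other 63 values of this kind stayed within 1.5 times the reported count or within counting error, and no median and no member's fold at 36 h changed direction under the scalings and pseudocounts run. The order of step sizes under other scalings and without the added 1 CPM, given with the steps, was likewise looked at after seeing the data. No paired analysis was possible because each condition has 1 library. Counting error limits AG08162.1 most, with 34 reads in 0 M.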
